A study of Mus musculus with 9 samples.

Results

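The genes described are 10 of the circadian clock and its output arm, found by symbol among the 24054 rows of the deposited table: the PAR bZIP factors Dbp, Tef and Hlf, the period genes Per1 and Per2, Arntl (BMAL1), the REV-ERB receptor genes Nr1d1 and Nr1d2, and the repressor genes Bhlhe40 (DEC1) and Bhlhe41 (DEC2). All 10 were found, 1 row each. Polyadenylated RNA was sequenced from primary cortical neurons of wild-type C57BL/6 mice after 6 days in culture, in 9 libraries. Of these, 3 came from neurons kept at 0.2% oxygen for 7 hours while 10 nM triiodothyronine, the active thyroid hormone, was present (hypoxia with T3), 3 from neurons held for 7 hours in 0.2% oxygen without added T3 (hypoxia), and 3 from control neurons in normal oxygen (normoxia). Libraries are named by the number in their column header, 11 to 13 for hypoxia with T3, 7 to 9 for hypoxia and 1 to 3 for normoxia. Nothing in the labels tells if libraries of 1 group came from separate cultures, so the p-values reflect the spread among these 9 libraries, and that spread may be technical. No group is a time series, and the number of collections per group and their time of day are not given in the sources used here. In bulk RNA, fewer cells of a type and less RNA per cell cannot be told apart.

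The mammalian clock is a loop of transcription. The proteins CLOCK (or its relative NPAS2) and BMAL1 bind E-boxes and drive the period and cryptochrome genes, whose proteins then repress the pair; REV-ERB and ROR receptors close a second loop by repressing and activating Arntl, and the DEC proteins compete at E-boxes. DBP, TEF and HLF carry the rhythm to output genes by binding D-boxes, and mice that lack all of the PAR bZIP factors are prone to seizures. Bhlhe40 and Bhlhe41 are also known as targets of the hypoxia-inducible factors, Per1 and Per2 as genes induced by stimulation, and Dbp as a gene that answers to thyroid hormone in brain.

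Levels are in CPM, the authors' read counts scaled to library size by the TMM method. The recovered depth was 17182338 to 33937842 reads per library. Every one of the 10 genes passed the filter on low values, which left 12923 genes for the tests. None of their values was off the step of 1 read, and the genes rested on 29 to 4588 reads in a library, the fewest for Bhlhe41 (29 to 89 reads) and Dbp (55 to 195 reads). Marker genes of microglia and endothelial cells were near 0, summing to at most 1.53 and 1.36 CPM in a library, while 8 neuron markers summed to 3675 to 3809 CPM in hypoxia with T3, 3908 to 4282 CPM in hypoxia and 5117 to 5414 CPM in normoxia. Most of that difference was Tubb3, which averaged 701 CPM in hypoxia with T3, 1104 CPM in hypoxia and 2373 CPM in normoxia; the median log2 change of the 8 was 0.01 in hypoxia with T3 and -0.02 in hypoxia, each against normoxia. The 12 astrocyte markers summed to 493 to 658 CPM in hypoxia with T3, 390 to 660 CPM in hypoxia and 322 to 441 CPM in normoxia, most of it Slc1a2 and Glul. Over the tested markers of each class the median log2 change in hypoxia against normoxia was 0.90 for astrocytes (3 of 11 higher), 1.11 for the oligodendrocyte lineage (1 of 7 higher) and 0.78 for dividing progenitors (0 of 5), and in hypoxia with T3 against normoxia it was 0.92 (3 of 11), 1.08 (0 of 7) and 0.83 (1 of 5). Of all tested genes, 14.3% were higher in hypoxia and 25.5% in hypoxia with T3, each against normoxia. The class medians lay in the direction of most of the 10 genes, and few of these markers passed. In each of these classes the library averages of hypoxia and normoxia overlapped. Those of hypoxia with T3 overlapped normoxia for the oligodendrocyte lineage and dividing progenitors, while for astrocytes all lay above it. The astrocyte averages were 0.65 to 1.44 in hypoxia with T3, 0.12 to 1.58 in hypoxia and -0.73 to 0.64 in normoxia (log2, relative to normoxia). The part of these markers in the results was not tested.

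Levels per kilobase of annotated exon allow only a rough comparison of genes, as all annotated exons were counted whichever transcripts were made. Nr1d1, Dbp and Bhlhe41 also share exon bases with genes on the opposite strand, as described below. By this measure the normoxic neurons held most of Nr1d1, at 37.5 ± 0.990 CPM per kilobase (SD, n = 3), a level made uncertain by its overlap with Thra. Per1 (22.0 ± 2.60) and Tef (8.48 ± 0.568) followed. Per2 (3.69 ± 0.293), Bhlhe40 (3.26 ± 0.348), Arntl (2.84 ± 0.153) and Nr1d2 (1.79 ± 0.131) came next. Dbp (0.732 ± 0.170), Hlf (0.686 ± 0.0895) and Bhlhe41 (0.236 ± 0.0541) were lowest. Among neighbours in this order, the ranges of Per2 and Bhlhe40 and those of Dbp and Hlf overlapped. In hypoxia with T3 Bhlhe40 stood at 8.69 ± 1.37 and Dbp at 2.08 ± 0.209 CPM per kilobase, and there Bhlhe40 exceeded Per2 (5.33 ± 0.382) and Dbp exceeded Hlf (0.618 ± 0.135) with no overlap between libraries.

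Against normoxia, 6 of the 10 genes were higher in hypoxia and none was lower by limma at an adjusted p under 0.05, where 33.6% of all tested genes changed in either direction 14.3% upward and 19.3% downward. The 6 were Dbp, Tef, Per2, Nr1d2, Bhlhe40 and Bhlhe41. The median log2 change of the 10 genes was 0.30, against -0.001 over all tested genes; Hlf, Per1, Arntl and Nr1d1 did not pass. Against normoxia, 6 were also higher in hypoxia with T3 and none lower (55.1% of all genes changed, 25.5% upward and 29.5% downward), with Nr1d1 past the threshold in place of Bhlhe41 and a median of 0.41, against 0.002 over all genes. Both comparisons share the normoxic libraries. Between hypoxia with T3 and hypoxia none of the 10 passed by limma, where 6.48% of all genes changed, 2.73% upward and 3.75% downward. The median was 0.10, against -0.006 over all genes. Of the 10, 4 had an unadjusted p under 0.05 by limma, edgeR called 0 and DESeq2 called 3. The shares of all genes at that cut-off and by those methods are not given here, so these counts cannot be set against them.

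**Figure D1:**
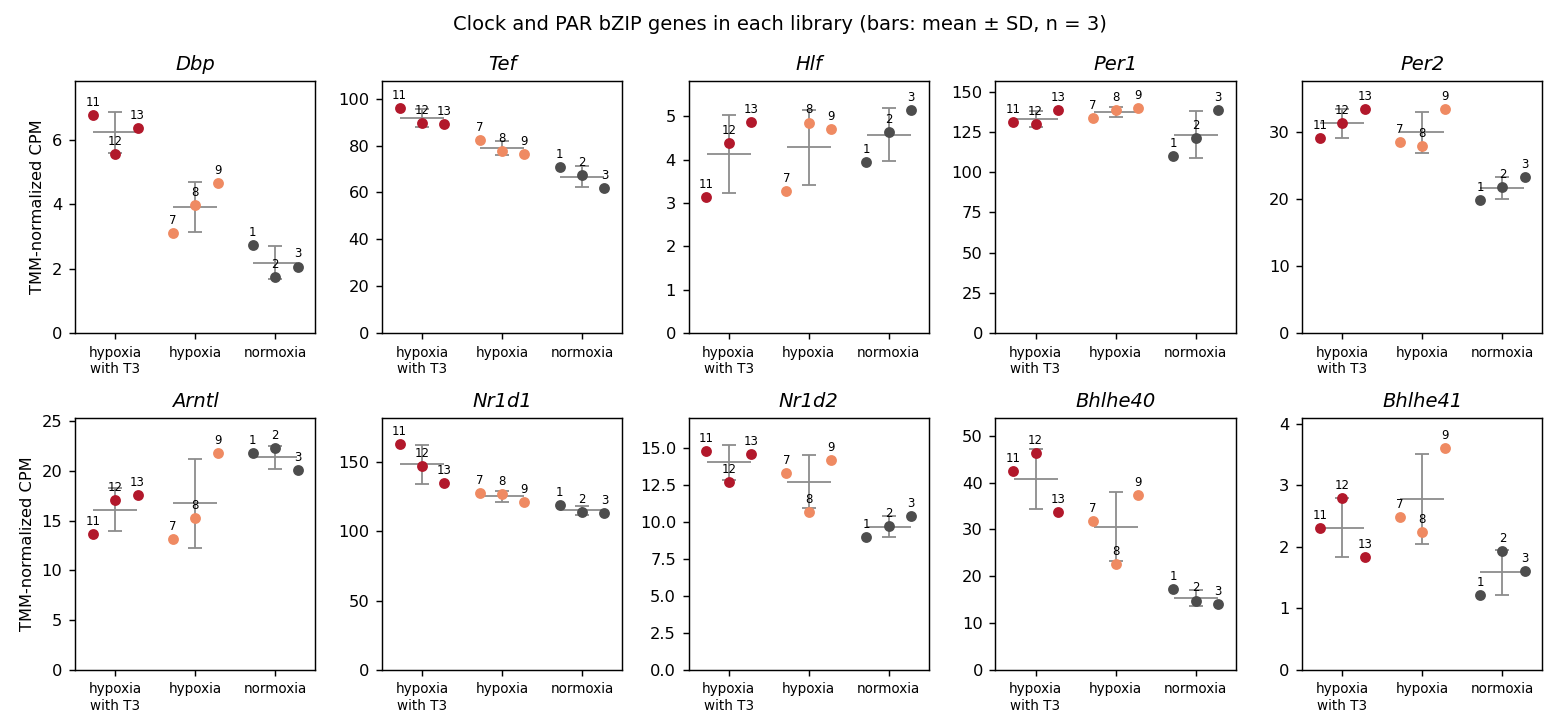
TMM-normalized CPM (vertical axes, from 0) of the 10 genes in each of the 9 libraries, grouped by condition; points are libraries with their numbers and grey bars are the mean ± SD of 3. Dbp stands highest in the T3 libraries (5.56 to 6.79 CPM), between them and normoxia in hypoxia, and lowest in normoxia, while Hlf overlaps in all groups.

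Of the PAR bZIP factors, which bind the same D-box element, Dbp and Tef passed the threshold in both comparisons with normoxia and Hlf in none. Dbp lies on chromosome 7 at 45705088 to 45710203 on the plus strand (mm10), Tef on chromosome 15 at 81802421 to 81826863 on the plus strand and Hlf on chromosome 11 at 90336536 to 90390895 on the minus strand. The windows before their annotated starts are shown here because Dbp and Tef both rose; they are the 250 bases before and 50 after a RefSeq start (GRCm38.p6), written 5′ to 3′ on the strand of the gene, and capitals mark an E-box, CACGTG. Tef has a pair of starts in that annotation, and each window held 1 E-box, while the Dbp window held none.
Dbp, chr7:45704997-45705296, plus strand: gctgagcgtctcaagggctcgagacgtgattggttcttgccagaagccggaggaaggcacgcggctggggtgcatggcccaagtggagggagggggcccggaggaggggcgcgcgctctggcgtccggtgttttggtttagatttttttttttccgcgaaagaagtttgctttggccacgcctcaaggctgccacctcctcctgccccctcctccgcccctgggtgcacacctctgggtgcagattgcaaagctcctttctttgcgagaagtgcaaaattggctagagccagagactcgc
Tef, upstream start, chr15:81802423-81802722, plus strand: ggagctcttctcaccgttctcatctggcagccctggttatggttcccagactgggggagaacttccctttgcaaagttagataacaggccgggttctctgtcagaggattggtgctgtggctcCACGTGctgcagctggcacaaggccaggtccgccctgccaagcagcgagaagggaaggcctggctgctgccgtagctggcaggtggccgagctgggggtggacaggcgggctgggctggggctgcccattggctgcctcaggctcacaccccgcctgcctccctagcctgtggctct
Tef, downstream start, chr15:81811164-81811463, plus strand: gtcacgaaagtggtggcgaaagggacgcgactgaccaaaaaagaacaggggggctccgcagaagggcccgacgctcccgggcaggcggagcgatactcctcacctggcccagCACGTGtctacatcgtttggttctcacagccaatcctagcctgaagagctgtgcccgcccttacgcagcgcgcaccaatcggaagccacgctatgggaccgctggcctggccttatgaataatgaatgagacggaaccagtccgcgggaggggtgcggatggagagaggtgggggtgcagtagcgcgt
An E-box was in 4 of the 11 windows searched, at Tef, Per1 and Bhlhe41, and in 7.15% of all 32851 windows of this length. A D-box (TTATGTAA or TTACGTAA, both strands) was in none of the 11 windows of the 8 genes that the promoter table covers, and in 1.06% of all windows; Per2 and Bhlhe40 had no entry. The letters AGGTCA, the core of a thyroid hormone receptor site, were in 3 of the 11 windows, at Per1, Arntl and Nr1d2 (16.3% of all). They were in neither the Dbp nor the Tef windows. The core of a hypoxia-inducible factor site, ACGTG or GCGTG, was in 9 of the 11 windows (43.8% of all). ACGTG also lies within an E-box and AGGTCA within TAGGTCA. Such matches are descriptions of these letters in these windows.

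Dbp had 6.79, 5.56 and 6.38 CPM in hypoxia with T3, 3.11, 3.97 and 4.67 CPM in hypoxia, and 2.75, 1.75 and 2.07 CPM in normoxia. No library of one group reached into another. In hypoxia Dbp rose by 0.62 (log2; SE 0.16; adjusted p = 0.011) and in hypoxia with T3 against normoxia by 1.19 (SE 0.16, adjusted p = 9.7e-05), with means 2.85 times apart. Between hypoxia with T3 and hypoxia its log2 change was 0.57 (95% interval 0.23 to 0.91, adjusted p = 0.0517), on the far side of the threshold; the adjusted p was 0.04 without hypoxia 9, 0.047 without normoxia 1, and ranged from 0.025 to 0.28 over all alternatives. Of the exon bases of Dbp, 18.0% are shared with Sphk2, a sphingosine kinase gene on the opposite strand, which averaged 32.9 CPM in hypoxia with T3, 36.4 CPM in hypoxia and 37.1 CPM in normoxia and did not pass the threshold in any of the 3 comparisons. The kit keeps the strand, but whether the counting used it is not stated.

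Tef had 96.1, 89.8 and 89.4 CPM in hypoxia with T3, 82.5, 77.8 and 76.6 CPM in hypoxia, and 70.8, 67.4 and 62.0 CPM in normoxia. Its groups too were in the same order as those of Dbp, without overlap. The steps were smaller: Tef rose by 0.24 in hypoxia (SE 0.06, adjusted p = 0.013) and by 0.46 in hypoxia with T3 against normoxia (SE 0.06, adjusted p = 0.00013). Between hypoxia with T3 and hypoxia the log2 change was 0.21 (95% interval 0.08 to 0.35, adjusted p = 0.058).

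Hlf had 3.13, 4.39 and 4.87 CPM in hypoxia with T3, 3.28, 4.86 and 4.71 CPM in hypoxia, and 3.95, 4.65 and 5.15 CPM in normoxia. All groups overlapped. Its log2 change was -0.09 in hypoxia (95% interval -0.46 to 0.28) and -0.13 in hypoxia with T3 against normoxia (95% interval -0.50 to 0.24), so a change of that size in either direction was not detectable here. The sign of the hypoxia change turned with equal column sums (0.03) and without hypoxia 7 (0.06). Hlf was lowest in T3 11, hypoxia 7 and normoxia 1, the 3 libraries that stood highest on the second principal component of all genes; their astrocyte markers averaged 0.87, 0.12 and -0.73 on the log2 scale relative to normoxia, against 0.65 to 1.44, 1.07 to 1.58 and 0.09 to 0.64 in the other libraries of their groups. The part of either in the level of Hlf was not tested.

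Ratios of a pair of genes within a library, here of CPM plus 1, depend little on how the libraries were scaled, but depend on the added 1 where a gene is low. Across 7 pairs and 3 comparisons, 21 exact two-sided permutation tests of 3 libraries against 3 were made, where the smallest p possible is 0.1 and every adjusted p was 0.21 or above. The log2 ratio of Dbp to Hlf was 0.28 to 0.92 in hypoxia with T3, -0.24 to -0.01 in hypoxia and -1.04 to -0.40 in normoxia, without overlap. It was higher by 1.32 in hypoxia with T3 than in normoxia (exact permutation p = 0.1, adjusted p = 0.21), by 0.72 with a pseudocount of 5 and by 1.65 with one of 0.1. The ratio of Dbp to Tef was higher by 0.74 in hypoxia with T3 than in normoxia (-3.79 to -3.62, against -4.64 to -4.26), with the same p, but by 0.21 with a pseudocount of 5 and by 1.03 with one of 0.1; its libraries overlapped between hypoxia and each of the other groups.

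The period genes encode the repressors that close the main loop. Per2, on chromosome 1 at 91415982 to 91459324 on the minus strand, had 29.0, 31.3 and 33.4 CPM in hypoxia with T3, 28.5, 27.8 and 33.4 CPM in hypoxia, and 19.8, 21.8 and 23.2 CPM in normoxia. Every low-oxygen library was above every normoxic one, and those with and without T3 overlapped. Per2 rose by 0.45 in hypoxia (SE 0.09, adjusted p = 0.0041) and by 0.51 in hypoxia with T3 against normoxia (SE 0.09, adjusted p = 0.00076), and the interval of its change between hypoxia with T3 and hypoxia was -0.14 to 0.26.

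Per1, on chromosome 11 at 69095217 to 69109960 on the plus strand, had 131, 130 and 139 CPM in hypoxia with T3, 134, 139 and 140 CPM in hypoxia, and 110, 121 and 139 CPM in normoxia. Normoxia 3 lay within the range of the low-oxygen libraries and normoxia 1 and 2 below it. The log2 change was 0.16 in hypoxia (95% interval -0.001 to 0.32, adjusted p = 0.11), and it passed without normoxia 3 (0.25, adjusted p = 0.013), with equal column sums (0.30, adjusted p = 0.017) and after quantile normalization (0.24, adjusted p = 0.034), whereas without normoxia 1 it was 0.08 (adjusted p = 0.38). With T3 against normoxia it was 0.11 (adjusted p = 0.22) passing without normoxia 3 (0.20, adjusted p = 0.019) and with equal column sums (0.22, adjusted p = 0.0464), while without normoxia 1 it was 0.03 (adjusted p = 0.7); with T3 against hypoxia it was -0.05 (95% interval -0.21 to 0.11). The ratio of Per1 to Per2 was 2.02 to 2.14 in hypoxia with T3, 2.04 to 2.28 in hypoxia and 2.42 to 2.54 in normoxia on the log2 scale, lower by 0.29 in hypoxia than in normoxia without overlap (exact permutation p = 0.1, adjusted p = 0.21).

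Early genes that neurons switch on after stimulation, a class to which both period genes are often counted, are given beside them from a separate list: 7 of 8 tested members were higher in hypoxia than in normoxia, with a median log2 change of 1.45, and 7 of 8 in hypoxia with T3 against normoxia, with a median of 2.20. Fos and Arc were among the genes called in both. Both period genes moved by less than those medians. Of all tested genes, 14.3% were higher in hypoxia and 25.5% in hypoxia with T3, each against normoxia. This list, like the others, was chosen with earlier results of these data known. The window at the upstream start of Per1 is shown because it holds an E-box (in capitals), although Per1 did not pass the threshold. The window at its second start held none. The full cAMP response element TGACGTCA was in neither, and in 1 of the 11 windows searched, that of Hlf (1.79% of all windows).
Per1, chr11:69098699-69098998, plus strand: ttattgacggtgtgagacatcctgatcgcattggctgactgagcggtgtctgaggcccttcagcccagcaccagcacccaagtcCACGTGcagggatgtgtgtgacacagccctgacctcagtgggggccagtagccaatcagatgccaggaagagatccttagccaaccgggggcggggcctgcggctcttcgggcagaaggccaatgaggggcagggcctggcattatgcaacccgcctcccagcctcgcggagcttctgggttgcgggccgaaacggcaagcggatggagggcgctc

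Arntl, the partner of CLOCK, was the one member with a called decrease under some settings. It lies on chromosome 7 at 113207465 to 113314126 on the plus strand. It had 13.7, 17.1 and 17.6 CPM in hypoxia with T3, 13.2, 15.3 and 21.8 CPM in hypoxia, and 21.8, 22.3 and 20.1 CPM in normoxia. The T3 libraries were all below normoxia, whereas hypoxia 9 lay inside the normoxic range and hypoxia 7 and 8 below it. The log2 change in hypoxia with T3 against normoxia was -0.39 (95% interval -0.73 to -0.05, adjusted p = 0.0502), past the threshold in 12 of 24 alternatives, edgeR (adjusted p = 0.044) and DESeq2 (0.036) among them, and between 0.011 and 0.19 over all of them. In hypoxia it was -0.36 (adjusted p = 0.094); it was -0.55 without hypoxia 9 (adjusted p = 0.011) and -0.21 without hypoxia 7 (adjusted p = 0.3). Hypoxia 9 also had the highest astrocyte markers of its group (1.58 relative to normoxia, against 0.12 and 1.07 in hypoxia 7 and 8); the part of that in the value of Arntl was not tested.

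REV-ERB receptors repress Arntl through sites that ROR receptors also use. The window at the downstream of both annotated Arntl starts is shown because it holds such a site, TAGGTCA, 31 bases after the start (in capitals; TAGGTCA or TGGGTCA was in 6.45% of all windows and in no other window of these genes).
Arntl, chr7:113207261-113207560, plus strand: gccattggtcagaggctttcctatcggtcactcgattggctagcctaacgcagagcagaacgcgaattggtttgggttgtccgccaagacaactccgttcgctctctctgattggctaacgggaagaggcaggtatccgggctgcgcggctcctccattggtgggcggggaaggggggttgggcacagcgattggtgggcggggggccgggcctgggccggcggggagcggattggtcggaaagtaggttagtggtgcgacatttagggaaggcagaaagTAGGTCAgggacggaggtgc

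Nr1d1, which encodes REV-ERB alpha, is on chromosome 11 at 98767932 to 98775333 on the minus strand. It had 163, 147 and 135 CPM in hypoxia with T3, 128, 127 and 121 CPM in hypoxia, and 119, 114 and 113 CPM in normoxia. The groups did not overlap, and the spread was widest in hypoxia with T3. Nr1d1 rose by 0.36 in hypoxia with T3 against normoxia (SE 0.07, adjusted p = 0.00085). In hypoxia the log2 change was 0.12 (95% interval -0.02 to 0.27, adjusted p = 0.17), and past the threshold with equal column sums (0.26, adjusted p = 0.005) and quantile normalization (0.20, adjusted p = 0.031). With T3 against hypoxia it was 0.24 (95% interval 0.09 to 0.38, adjusted p = 0.053), with 0.30 without T3 13 (adjusted p = 0.013) and 0.17 without T3 11 (adjusted p = 0.2).

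Exons of Nr1d1 and of Thra, the gene of thyroid hormone receptor alpha, lie on opposite strands and share 263 bases, 8.55% of the exon bases of Nr1d1. Thra averaged 1138 ± 39.3 CPM in hypoxia with T3, 1070 ± 41.8 CPM in hypoxia and 1086 ± 75.1 CPM in normoxia (SD, n = 3), far above Nr1d1. Without the strand, the position of a read in the shared bases does not tell which gene it came from, so the level of Nr1d1 is uncertain. The log2 change of Thra was 0.07 in hypoxia with T3 against normoxia (adjusted p = 0.34) and 0.09 between hypoxia with T3 and hypoxia (adjusted p = 0.35). What part Thra reads have in the values of Nr1d1 was not tested.

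Nr1d2, which encodes REV-ERB beta, is on chromosome 14 at 18204054 to 18239127 on the minus strand. It had 14.8, 12.7 and 14.6 CPM in hypoxia with T3, 13.3, 10.7 and 14.2 CPM in hypoxia, and 8.95, 9.70 and 10.4 CPM in normoxia. Low-oxygen libraries all exceeded the normoxic ones, hypoxia 8 by the least. Nr1d2 rose by 0.50 in hypoxia with T3 against normoxia (SE 0.11, adjusted p = 0.0035) and by 0.36 in hypoxia (SE 0.11, adjusted p = 0.032). The hypoxia call was lost without normoxia 1 (adjusted p = 0.099), normoxia 2 (0.071), hypoxia 7 (0.088) or hypoxia 9 (0.12), with no filter (0.062) or library weights (0.0531), and without the 3 libraries highest on the second principal component (0.21).

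The DEC repressor genes differed in level, with Bhlhe41 the lowest of the 10 genes per kilobase in each group. Bhlhe40, on chromosome 6 at 108660629 to 108666925 on the plus strand, had 42.4, 46.4 and 33.8 CPM in hypoxia with T3, 31.9, 22.6 and 37.3 CPM in hypoxia, and 17.2, 14.8 and 14.0 CPM in normoxia. Each low-oxygen library was above each normoxic one, while hypoxia 9 exceeded T3 13. Bhlhe40 rose by 0.93 in hypoxia (SE 0.17, adjusted p = 0.002) and by 1.35 in hypoxia with T3 against normoxia (SE 0.17, adjusted p = 6.4e-05), with means 2.67 times apart. With T3 against hypoxia its log2 change was 0.42 (95% interval 0.06 to 0.79, adjusted p = 0.13), and 0.23 without hypoxia 8 (adjusted p = 0.39); it passed with library weights (0.60, adjusted p = 0.015).

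Bhlhe41, on chromosome 6 at 145858243 to 145865558 on the minus strand, had 2.31, 2.79 and 1.83 CPM in hypoxia with T3, 2.49, 2.24 and 3.61 CPM in hypoxia, and 1.21, 1.93 and 1.61 CPM in normoxia. Hypoxia libraries were above normoxia, hypoxia 9 by the most, and T3 13 lay within the normoxic range. Bhlhe41 rose by 0.54 in hypoxia (SE 0.17, adjusted p = 0.034), a call lost without normoxia 1 (adjusted p = 0.12), normoxia 3 (0.065) or hypoxia 9 (0.13), with no filter (0.062), quantile normalization (0.071) or library weights (0.065), and without the 3 libraries highest on the second principal component (0.15). In hypoxia with T3 against normoxia the log2 change was 0.36 (95% interval -0.03 to 0.74, adjusted p = 0.10), and past the threshold with library weights alone of the alternatives (0.44, adjusted p = 0.023). Of the exon bases of Bhlhe41, 19% (1280 bases) are shared with Gm43909 on the opposite strand. Gm43909 has no row in the deposited values, so its part in the level of Bhlhe41 was not tested.

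The log2 ratio of Bhlhe40 to Bhlhe41 was 3.62 to 3.71 in hypoxia with T3, 2.87 to 3.24 in hypoxia and 2.43 to 3.04 in normoxia. The T3 libraries stood above all others, by 0.61 over hypoxia (exact permutation p = 0.1, adjusted p = 0.21). Of the 10 HIF-responsive genes listed to be read beside this pair, all 10 were higher in hypoxia than in normoxia, with a median log2 change of 1.77, and 3 were higher in hypoxia with T3 than in hypoxia, with a median of 0.39. The changes of Bhlhe40 and Bhlhe41 in hypoxia were below that median of 1.77. Of all tested genes, 14.3% were higher in hypoxia than in normoxia and 2.73% in hypoxia with T3 than in hypoxia.

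**Figure D2:**
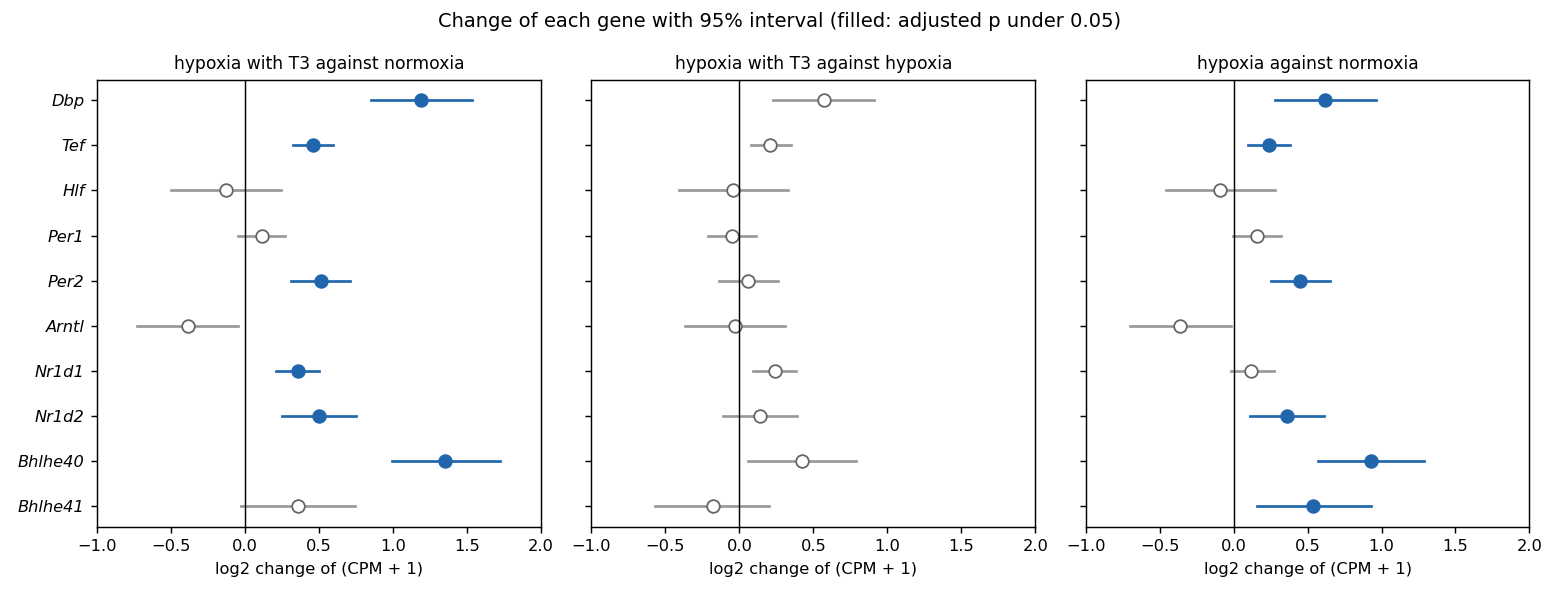
Log2 change of CPM plus 1 (horizontal axis) with its 95% interval for each gene in the 3 comparisons; filled points passed the threshold by limma with Benjamini-Hochberg adjustment. In hypoxia with T3 against hypoxia no point is filled, and Dbp, Tef, Nr1d1 and Bhlhe40 have intervals above 0.

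**Figure D3:**
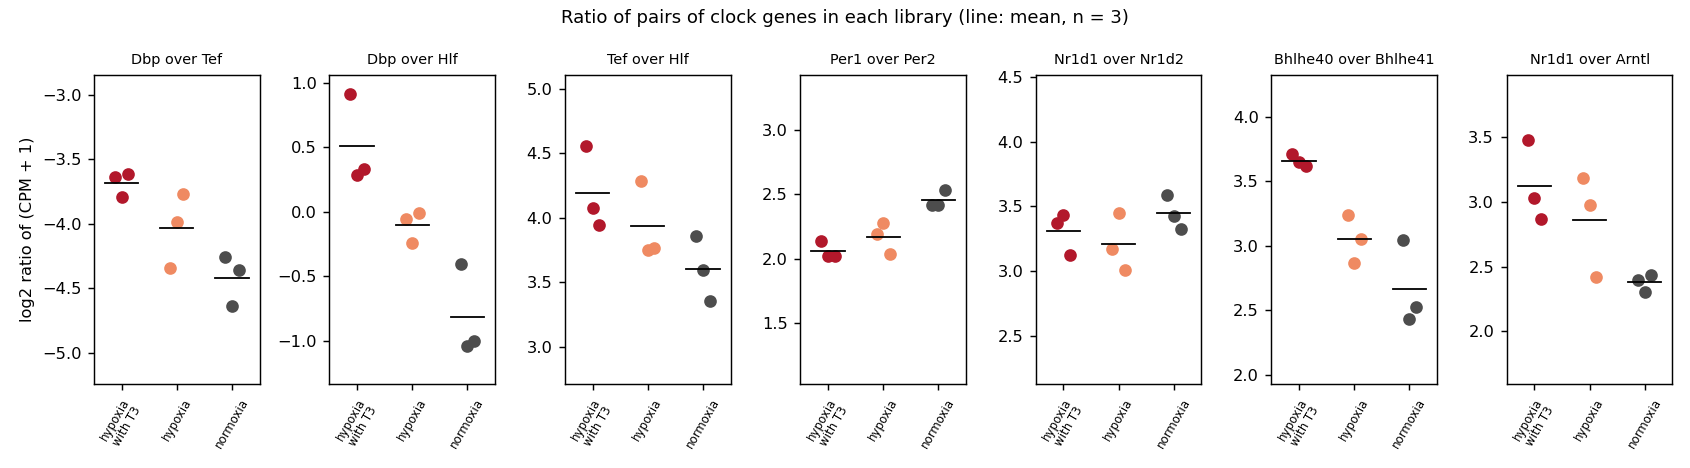
Log2 ratio of CPM plus 1 (vertical axes, each spanning the same width) of 7 pairs of these genes in each library; lines are means of 3. The ratio of Dbp to Hlf is without overlap in all 3 groups, from 0.28 to 0.92 in hypoxia with T3 down to -1.04 to -0.40 in normoxia.

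The other clock genes came from a list of 19, of which 17 passed the filter and were tested. In hypoxia against normoxia 3 were higher (Cry2, Nfil3 and Ciart) and 6 lower (Clock, Npas2, Rorb, Csnk1e, Btrc and Fbxw11), 52.9% of the 17 against 33.6% of all genes; with equal column sums the split was 7 higher and 3 lower. In hypoxia with T3 against normoxia 5 were higher, with Per3 and Csnk1d added, and the same 6 were lower, 64.7% against 55.1% of all genes. Between hypoxia with T3 and hypoxia Ciart was higher and Rorb lower, 11.8% of the 17 against 6.48% of all genes, and the other 15 did not pass. The median log2 change was 0.14 in hypoxia and 0.19 in hypoxia with T3, each against normoxia, and 0.02 with T3 against hypoxia. Without the 3 libraries highest on the second principal component, the count in hypoxia against normoxia was 5, of which 1 was higher and 4 lower.

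Ciart, also named Chrono, encodes a repressor of CLOCK and BMAL1 and lies on chromosome 3 at 95878503 to 95882251 on the minus strand. It had 22.8, 20.4 and 15.9 CPM in hypoxia with T3, 12, 10.2 and 11.4 CPM in hypoxia, and 3.29, 3.17 and 3.25 CPM in normoxia. The groups were far apart, and its change exceeded that of any of the 10 genes in each comparison. Ciart rose by 1.52 in hypoxia (SE 0.13, adjusted p = 2.3e-05) and by 0.75 with T3 against hypoxia (SE 0.13, adjusted p = 0.016); the call with T3 against hypoxia was lost without hypoxia 8 (adjusted p = 0.083), T3 11 (0.064) or T3 12 (0.073), and without the 3 libraries above (0.15). Its window is shown because it held 3 E-boxes, at positions -116, -58 and -44 relative to the start.
Ciart, chr3:95882179-95882478, minus strand: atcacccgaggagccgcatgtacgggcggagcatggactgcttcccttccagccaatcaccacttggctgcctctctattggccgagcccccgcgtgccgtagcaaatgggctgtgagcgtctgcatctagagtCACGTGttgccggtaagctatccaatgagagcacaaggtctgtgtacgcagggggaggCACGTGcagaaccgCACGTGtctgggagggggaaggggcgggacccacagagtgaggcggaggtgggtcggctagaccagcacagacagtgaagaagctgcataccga

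On the activating side, Clock had 17.7, 20.7 and 21.4 CPM in hypoxia with T3, 22.7, 23.5 and 24.2 CPM in hypoxia, and 28, 29.9 and 29.7 CPM in normoxia. Clock fell by 0.31 in hypoxia (adjusted p = 0.015) and by 0.53 in hypoxia with T3 against normoxia (adjusted p = 0.00027); with equal column sums the hypoxia change was -0.17 (adjusted p = 0.16). Npas2, which can stand in for CLOCK in forebrain, had 3.80, 5.12 and 8.83 CPM in hypoxia with T3, 7.74, 9.52 and 8.57 CPM in hypoxia, and 14.9, 14.0 and 14.9 CPM in normoxia. It fell by 0.70 in hypoxia (SE 0.21, adjusted p = 0.023) and by 1.24 in hypoxia with T3 against normoxia (SE 0.21, adjusted p = 0.00046). The hypoxia call was lost without normoxia 1 (adjusted p = 0.061), normoxia 3 (0.053), hypoxia 7 (0.067) or hypoxia 9 (0.061). It was also lost with no filter (0.0541), with equal column sums (0.055) and without the 3 libraries highest on the second principal component (0.061). The range of Npas2 in hypoxia with T3 was wide, and T3 13 lay inside that of hypoxia; with T3 against hypoxia its log2 change was -0.54 (adjusted p = 0.12), with -0.82 without T3 13 (adjusted p = 0.0067) and -0.30 without T3 11 (adjusted p = 0.41).

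Among the repressors, Per3 had 3.20, 2.76 and 2.26 CPM in hypoxia with T3, 1.86, 2.03 and 3.25 CPM in hypoxia, and 1.42, 1.6 and 1.18 CPM in normoxia. It rose by 0.64 in hypoxia with T3 against normoxia (adjusted p = 0.0083). In hypoxia its log2 change was 0.48 (adjusted p = 0.0501), past the threshold in 9 of 23 alternatives. Among them were edgeR (log2 change 0.76, adjusted p = 0.044) and DESeq2 (0.78, adjusted p = 0.041), both fitted to recovered reads. The limma change was 0.59 without hypoxia 7 (adjusted p = 0.036) and 0.30 without hypoxia 9 (adjusted p = 0.18). Cry2 rose by 0.27 in hypoxia with T3 (adjusted p = 0.0016) and by 0.17 in hypoxia (adjusted p = 0.035), each against normoxia. Nfil3, which binds D-boxes as a repressor, rose by 0.26 in hypoxia with T3 (adjusted p = 0.0031) and by 0.22 in hypoxia (adjusted p = 0.015). The Cry2 call in hypoxia was lost without normoxia 2 (adjusted p = 0.094), normoxia 3 (0.078), hypoxia 7 (0.11), hypoxia 9 (0.10) or T3 12 (0.052), and with no variance trend (0.07). The Nfil3 call was lost without normoxia 1 (0.055) or hypoxia 8 (0.0501). Both were lost without the 3 libraries highest on the second principal component (0.12 for Cry2 and 0.075 for Nfil3). Of the 17 genes, 6 did not pass in any comparison. Rorb, whose product activates Arntl and which also marks cortical layer 4, stood 2.02 lower on the log2 scale in hypoxia with T3 than in normoxia.

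Kinases and ubiquitin ligases that act on the period proteins were also listed. Csnk1e fell by 0.27 in hypoxia with T3 (adjusted p = 0.00038) and by 0.29 in hypoxia (adjusted p = 0.00074), and Btrc fell by 0.66 in hypoxia with T3 (adjusted p = 0.00014) and by 0.41 in hypoxia (adjusted p = 0.0065), each against normoxia; with equal column sums the hypoxia changes were -0.15 for Csnk1e and -0.27 for Btrc. Fbxw11 fell by 0.21 in hypoxia against normoxia (adjusted p = 0.012), and by 0.07 with equal column sums (adjusted p = 0.33). Its log2 change was -0.11 with quantile normalization (adjusted p = 0.11) and -0.16 without the 3 libraries highest on the second principal component (adjusted p = 0.086). Csnk1d rose by 0.19 in hypoxia with T3 against normoxia (adjusted p = 0.0097), and by 0.16 without those 3 libraries (adjusted p = 0.088).

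Of 7 clock output genes, 3 were higher in hypoxia than in normoxia: Wee1, a cell cycle kinase gene (log2 change 0.61), Nampt, the NAD salvage enzyme gene (0.53), and Ccrn4l, the deadenylase-family gene nocturnin (0.52); that is 42.9% of the list, against 33.6% of all tested genes. In hypoxia with T3 against normoxia these 3 and Pdxk were higher, and Usp2, a ubiquitin protease gene, was lower, 71.4% of the list against 55.1% of all tested genes. Pdxk, the pyridoxal kinase gene that PAR bZIP factors drive in mouse brain, rose by 0.20 in hypoxia with T3 against normoxia (SE 0.05, adjusted p = 0.0062) and was at 0.12 in hypoxia (adjusted p = 0.092). Usp2 was the only output gene called between hypoxia with T3 and hypoxia, where it fell by 0.41 (adjusted p = 0.043), a call lost without any one of 7 libraries, normoxia 1 (adjusted p = 0.053) and 2 (0.057), hypoxia 7 (0.099), 8 (0.085) and 9 (0.08) and T3 11 (0.17) and 12 (0.10). The call was also lost with no filter (0.079), only the 2 groups compared (0.066) or no variance trend (0.07). Without the 3 libraries highest on the second principal component it was lost too (0.28).

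Of the T3-responsive genes listed to be read beside Dbp, 6 were tested between hypoxia with T3 and hypoxia, where 5 were higher and Thrb lower, with a median log2 change of 0.99. Of all tested genes, 2.73% were higher and 3.75% lower there. The change of Dbp in that comparison, 0.57, was below the median of this list. Hr (2.57), Klf9 (1.21) and Cyp26b1 (1.44) of this list have values that are not whole reads. So do Vegfa of the HIF-responsive list and Junb of the early genes. Of the other tested T3-responsive genes, Nefm (0.77) stood above Dbp, and Rasd2 (0.46) and Thrb (-0.91) below it. The place of Dbp thus depends on which genes are counted.

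**Figure D4:**
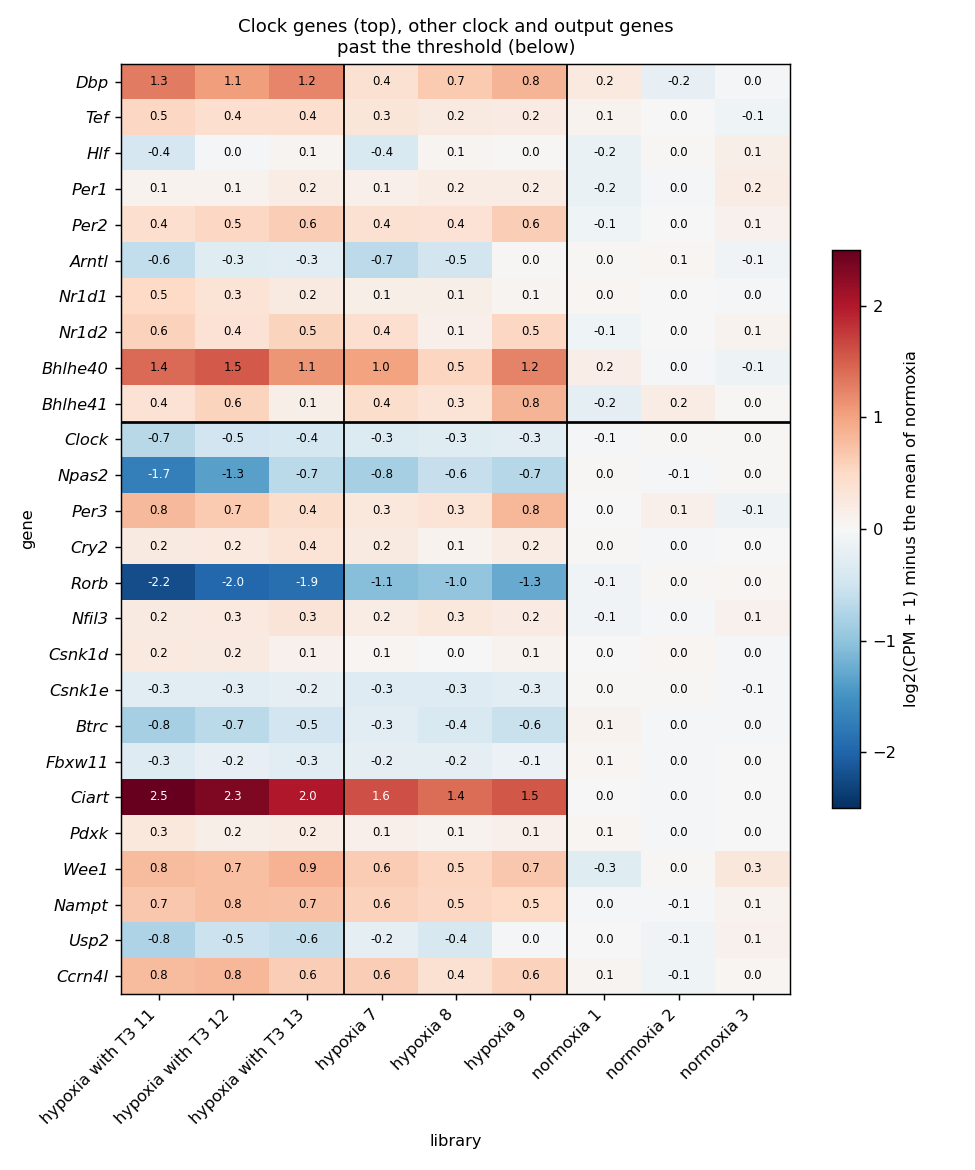
Log2 of CPM plus 1 minus the mean of the gene in normoxia, for the 10 genes (above the line) and the other clock and output genes past the threshold in at least 1 comparison (below), in each library (columns). Red is higher and blue lower than normoxia; Ciart reaches the highest values in hypoxia with T3, and Rorb and Npas2 the lowest.

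The genes whose profile over the 9 libraries was nearest to a changed member were found by the mean absolute difference of log2 values centred on normoxia, among 12191 tested genes. Nearest to Dbp were Zfp503 (0.090) and Camk2n1 (0.110). For Tef they were Gorasp1 (0.032) and Gdpd1 (0.034), for Nr1d1 Syvn1 (0.026) and Arl6ip1 (0.027), for Nr1d2 Ing3 and Spty2d1 (0.048 each), for Per2 Zfand6 (0.052) and Repin1 (0.057), and for Bhlhe41 Plin2 (0.065) and E2f5 (0.089). None of these neighbours is on the lists of clock genes used here.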

How the data were processed

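Polyadenylated RNA was measured in 9 libraries of primary mouse cortical neurons, 3 per group. The submitters' processing notes name mm10, RSEM 1.2.15, Bowtie2 2.1.0 and edgeR, the last without a version; the annotation release, the strand setting and filters are not given in the sources used here. The deposited values are a scaled signal, TMM-normalized CPM made by the authors, with column sums of 945822 to 1091200. The sums were 967693 to 1000648 in hypoxia with T3, 945822 to 971035 in hypoxia and 1025181 to 1091200 in normoxia. The ribosomal row Rn45s made up 1.04% to 2.65%, 1.04% to 1.33% and 3.25% to 4.21% of them, in the same order. The part of Rn45s in the results was not tested. The values of each column are whole multiples of the value of 1 read in 99.89% to 100.0% of rows (within 0.01 reads), and whole reads were recovered from them; 35 rows hold values off that step, none of them of the 10 genes. This depth measures counting error only. An unnamed column (1, with 4 numbers) was not used.

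The 12923 genes with over 1 CPM in 3 or more libraries were tested. limma 3.58.1 (R 4.3.3) was fitted to log2(CPM + 1) of the 9 libraries, with a variance trend in eBayes and 6 residual degrees of freedom. Tests were two-sided, p-values were adjusted by Benjamini-Hochberg over those genes, and an adjusted p under 0.05 passed. A log2 change is on that scale and understates the change of low genes. Means and SDs are of the values. The method was run on simulated counts for hypoxia with T3 against hypoxia only. Far fewer genes were changed there than were called here against normoxia, so it does not cover the comparisons with normoxia. Alternatives were edgeR 4.0.16 and DESeq2 1.42.0 on recovered reads, other pseudocounts, filters, scalings and variance models, rows or values off the read step left out, and each library left out. Ratios of 2 genes were compared with exact permutation tests.

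Exon lengths, gene positions and overlaps are from GENCODE M21 (GRCm38, the mm10 assembly) and promoter windows from RefSeq (GRCm38.p6), which covered 8 of the 10 genes. The genes and lists were chosen with earlier results of these data known. Named beyond the 10 are the other clock and output genes past the threshold in at least 1 comparison, and the 2 genes with the nearest profile to each changed member, leaving out predicted genes; those of Bhlhe40 are not reported here. Sphk2, Thra and Gm43909 were added for their exon overlap, outside that rule. Tef, Arntl and Bhlhe40 share 2.45%, 0.439% and 2.51% of their exon bases with other genes on the opposite strand.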

Additional observations from a re-analysis of the deposited data

How the results depend on the processing

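No paired analysis was possible because the column headers of both low-oxygen groups carry numbers that differ from the replicate numbers in the titles. Counts of called genes among the 10, in either direction, stayed within 1.5 times in both comparisons with normoxia: 4 to 8 in hypoxia (6 as reported; 4 to 6 leaving out 1 library) and 5 to 8 in hypoxia with T3 (6; 6 to 7 leaving out 1 library). Calls in these counts were upward except for Arntl. It was called lower in hypoxia without hypoxia 9, and in hypoxia with T3 in 12 of 24 alternatives. With a mean of at least 5 CPM only 7 of the 10 were tested. Between hypoxia with T3 and hypoxia the count of 0 became 1 with a pseudocount of 5 or a mean of at least 5 CPM, 3 with quantile normalization or DESeq2 and 4 with weights for each library, all upward, and 0 to 1 leaving out 1 library (1 without normoxia 1, hypoxia 9 or T3 13). The shares of all genes called under the alternatives are not given here, so no count under an alternative can be set against its share. Of the other clock genes the 9 called in hypoxia became 5 without the 3 libraries highest on the second principal component, a setting chosen after seeing the data. The 2 called between hypoxia with T3 and hypoxia became 5 with library weights, 1 without those 3 libraries and 1 to 5 leaving out 1 library (5 without T3 13; 1 without hypoxia 8, T3 11 or T3 12). The cause of these moves was not tested. The 11 called in hypoxia with T3 against normoxia ranged from 9 to 13. Without the 3 libraries highest on the second principal component, the call of Wee1 in hypoxia against normoxia was lost (adjusted p = 0.065). So were those of Nr1d2 (0.0548) and Per3 (0.059) in hypoxia with T3 against normoxia.

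Every sign that turned was of a change that had not passed the threshold. For Hlf they were 0.03 with equal column sums and 0.06 without hypoxia 7 in hypoxia against normoxia; 0.01 with quantile normalization, 0.01 with library weights, 0.04 without hypoxia 8, 0.02 without hypoxia 9 and 0.11 without T3 11 with T3 against hypoxia; and 0.02 without T3 11 with T3 against normoxia. Leaving out 1 library, the change of Hlf ranged from -0.17 to 0.06 in hypoxia, from -0.19 to 0.11 with T3 against hypoxia and from -0.24 to 0.02 with T3 against normoxia. With T3 against hypoxia Arntl turned to 0.01 with quantile normalization, 0.05 with library weights, 0.16 without hypoxia 9 and 0.08 without T3 11 (-0.18 to 0.16 leaving out 1 library), Per3 to -0.04 without the 3 libraries, and Csnk1e to -0.01 with equal column sums and -0.03 with quantile normalization; the ratio of Nr1d1 to Nr1d2 turned to -0.002 without hypoxia 9 (-0.002 to 0.22 leaving out 1 library). The median of all genes moved to 0.13 in hypoxia and 0.099 in hypoxia with T3, both against normoxia, with equal column sums. Depth limits Bhlhe41 and Dbp most, which had as few as 29 and 55 reads in a library.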
